A study of Mus musculus with 6 samples.

Results

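The Iroquois homeobox family was followed through the hearts of mouse embryos that had lost the RNA-binding proteins RBPMS and RBPMS2 from their cardiomyocytes. The family was taken as the 6 genes named Irx1 to Irx6 in the deposited table, each of which has 1 row among its 45706 genes. Poly(A) RNA of 6 C57BL6/J hearts was sequenced. The 3 control hearts were homozygous for loxP-flanked Rbpms and Rbpms2 (RBPMS flox/flox RBPMS2 flox/flox, no Cre), and the 3 knockout hearts had the same floxed alleles plus a Cre transgene (aMyHC Cre pos), so that transgene and deletion come together in the comparison. The alpha-myosin heavy chain promoter drives Cre in cardiomyocytes, and the endothelial, epicardial and connective tissue cells of the same hearts are expected to keep both genes. The design text calls the controls littermates and the stage embryonic, without a day. Each sample is labelled a heart, but no litter or embryo is named, so the p-values measure the spread between these samples.

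Iroquois proteins are transcription factors of the TALE class, homeodomain proteins with an extended loop between helices of the homeodomain. In mammals their genes lie in a pair of clusters, Irx1, Irx2 and Irx4 in one and Irx3, Irx5 and Irx6 in the other, and members of a cluster are often expressed in overlapping domains. In the heart Irx4 is known as a gene of the ventricular myocardium, Irx3 and Irx5 as genes of the trabeculae, the conduction system and the endocardium that shape conduction and repolarization, and Irx1 and Irx2 as genes of the ventricular septum.

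In mm10 the first cluster lies on chromosome 13, with Irx1 (ENSMUSG00000060969) at 71957921 to 71963723 on the minus strand, Irx2 (ENSMUSG00000001504) at 72628820 to 72634198 on the plus strand and Irx4 (ENSMUSG00000021604) at 73260479 to 73269608 on the plus strand. The other lies on chromosome 8, with Irx3 (ENSMUSG00000031734) at 91798525 to 91802067 on the minus strand, Irx5 (ENSMUSG00000031737) at 92357625 to 92376286 on the plus strand and Irx6 (ENSMUSG00000031738) at 92674288 to 92680956 on the plus strand. Starts of members within a cluster are 316.7 to 1296.8 kb apart, and other genes lie between the members.

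Promoter windows (250 bases before to 50 after the RefSeq start, build GRCm38.p6) were found for 3 of the 6 members, Irx2, Irx3 and Irx4, for Crnde, a long non-coding RNA gene that starts 1.5 kb from the start of Irx5 on the opposite strand, and for Irx3os, described below. Those of the members and Crnde are shown, because Irx2, Irx3 and Crnde are called higher in the knockouts below and Irx4 is not. Capitals mark the letters AAGTG, the core of sites bound by the cardiac homeodomain factor NKX2-5, or their reverse complement. In order, the windows are chr13:72628570-72628869 on the plus strand, chr8:91801605-91801904 on the minus strand, chr13:73260247-73260546 on the plus strand and chr8:92356071-92356370 on the minus strand.
Irx2: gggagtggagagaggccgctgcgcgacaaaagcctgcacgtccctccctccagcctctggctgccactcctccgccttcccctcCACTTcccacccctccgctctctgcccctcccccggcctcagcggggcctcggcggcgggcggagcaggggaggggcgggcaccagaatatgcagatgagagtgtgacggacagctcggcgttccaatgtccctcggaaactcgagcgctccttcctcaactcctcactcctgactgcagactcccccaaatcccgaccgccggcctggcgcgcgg
Irx3: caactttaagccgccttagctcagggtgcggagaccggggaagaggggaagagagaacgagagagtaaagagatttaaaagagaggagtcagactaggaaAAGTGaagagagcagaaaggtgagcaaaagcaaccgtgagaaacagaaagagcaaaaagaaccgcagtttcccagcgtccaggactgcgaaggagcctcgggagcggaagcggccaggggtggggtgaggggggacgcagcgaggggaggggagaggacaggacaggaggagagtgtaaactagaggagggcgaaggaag
Irx4: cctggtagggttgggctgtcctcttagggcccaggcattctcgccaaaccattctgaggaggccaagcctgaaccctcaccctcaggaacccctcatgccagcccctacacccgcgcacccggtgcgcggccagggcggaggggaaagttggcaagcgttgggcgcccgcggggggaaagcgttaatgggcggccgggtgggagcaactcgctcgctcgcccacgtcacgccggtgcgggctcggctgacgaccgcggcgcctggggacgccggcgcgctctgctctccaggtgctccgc
Crnde: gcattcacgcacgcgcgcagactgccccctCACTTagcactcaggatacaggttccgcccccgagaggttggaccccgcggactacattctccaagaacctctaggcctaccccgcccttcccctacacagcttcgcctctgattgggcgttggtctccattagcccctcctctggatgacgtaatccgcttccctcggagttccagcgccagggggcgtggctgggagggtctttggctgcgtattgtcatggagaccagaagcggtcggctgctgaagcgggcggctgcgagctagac

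The letters AAGTG occurred once each in the windows of Irx2, Irx3 and Crnde and not in those of Irx4 and Irx3os, on either strand. Irx3os is also called higher, so the letters did not follow the calls in these windows, and 46.4% of 32851 promoter windows of the same length hold them. By the gene coordinates used here, the windows of Irx3 and Irx3os lie inside the genes, and the annotated starts were not searched. The Irx3os window is at 91803086 to 91803385 on the plus strand, in a gene at 91800415 to 91807539. None of these windows held the palindrome ACANNTGT, to which Iroquois proteins bind (7.38% of all windows), the CArG box of the serum response factor (1.63%), the letters TATAAA (13.6%), the GATA factor letters AGATAA (11.2%) or the T-box letters AGGTGT (13.7%). All were searched on both strands. The E-box CANNTG, whose letters lie within the Iroquois palindrome, occurred once each in Irx2, Irx4 and Irx3os and in 72.3% of all windows. The GC content was 69.0% in Irx2, 56.0% in Irx3, 70.7% in Irx4, 62.7% in Crnde and 53.0% in Irx3os, against a median of 52.7% over all windows. The dinucleotide CG occurred 25, 14, 31, 22 and 6 times in that order, against a median of 7.

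The values are reads per gene that the authors scaled per heart and rounded, called normalized values here. Estimated depths were 12960254 to 25838007 reads per heart, shallowest in control replicate 3. The targeted genes were lower in every knockout: Rbpms fell from 3868 to 7656 in the controls to 852 to 1134, and Rbpms2 from 1362 to 1998 to 879 to 1003. Judged by Xist and Y-linked transcripts, control replicates 1 and 3 and knockout replicate 2 were female and the others male.

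The comparison asks how the Iroquois genes changed when cardiomyocytes lacked RBPMS and RBPMS2. In limma on log2(value + 1), 4 of the 6 members rose, Irx1, Irx2, Irx3 and Irx5, and 0 fell. Over all 15556 genes tested 17.2% were called at an adjusted p of 0.05, 8.61% higher and 8.56% lower. The median log2 change of the members was 0.91, or 0.72 over the 5 with a control mean of at least 10, against 0 over all genes tested. Irx3 and Irx5, of the chromosome 8 cluster, rose to more than double, whereas the rises of Irx1 and Irx2 were smaller. Irx4 and Irx6 did not pass. Because whole hearts were sequenced, more cells that express a gene and more RNA per cell cannot be told apart.

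**Figure D1:**
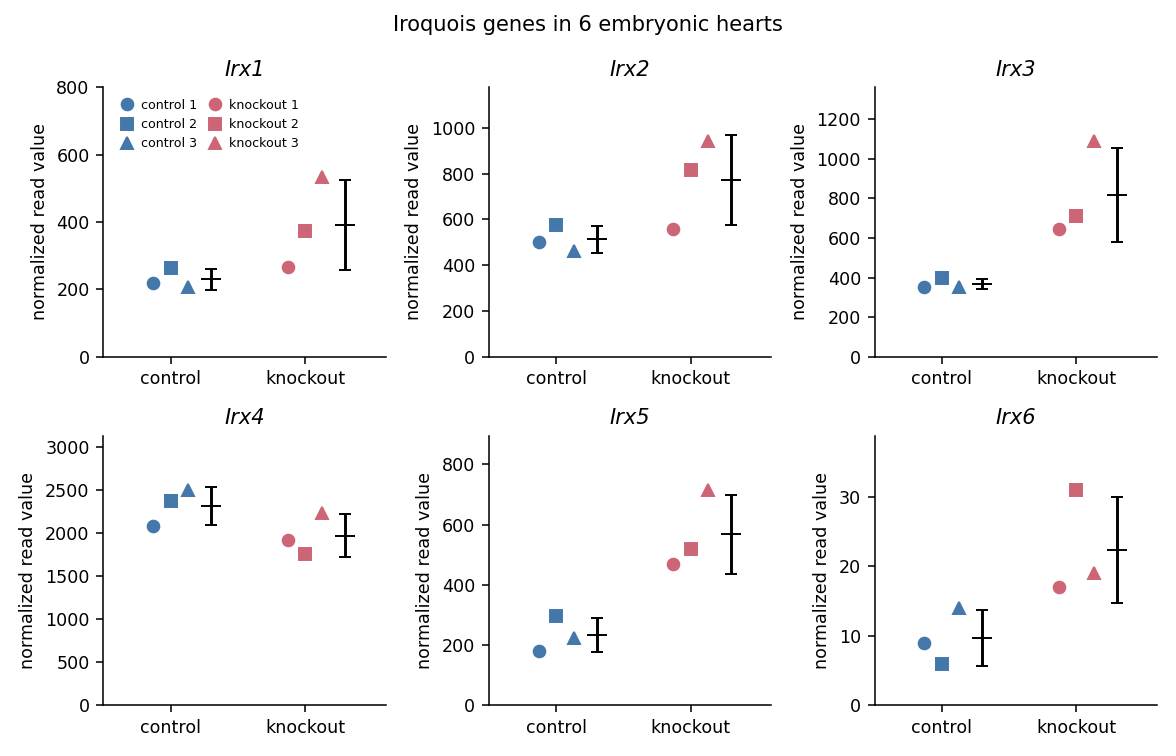
Normalized read value (vertical axes, from 0) of each Iroquois gene in each heart, controls in blue and knockouts in red, with the mean and SD of each group in black (n = 3 each). Irx3 and Irx5 are higher in all 3 knockouts than in any control, and Irx4 is the one member whose mean is lower in the knockouts.

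Irx5, a repressor of the potassium channel gene Kcnd2 in the ventricle wall, was at 181, 295 and 225 in control replicates 1, 2 and 3, and 469, 519 and 716 in knockout replicates 1, 2 and 3. The lowest knockout lay well above the highest control. The means were 233.7 ± 57.5 and 568 ± 131 (SD, n = 3 each), a 2.43-fold difference. The log2 change was 1.28 (SE 0.19, 95% confidence interval 0.86 to 1.71, limma adjusted p = 0.00223).

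Irx3, which shapes conduction through the ventricular conduction system, measured 353, 399 and 353 in control hearts and 647, 714 and 1090 in knockout hearts. The controls lay close together and the knockouts did not overlap them, with knockout replicate 3 far above the others. The means were 368 ± 26.6 and 817 ± 239 (SD, n = 3 each), a 2.22-fold difference. The log2 change was 1.11 (SE 0.17, 95% confidence interval 0.74 to 1.48, limma adjusted p = 0.00229). Irx3 and Irx5 were among the 1.54% of genes tested that were called and rose by at least 1 on the log2 scale. Both kept their calls in each of 15 alternative analyses, including without each heart in turn.

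Irx1 measured 219, 263 and 206 in control hearts and 267, 373 and 533 in knockout hearts. The groups did not overlap, but knockout replicate 1 lay only just above control replicate 2. Its log2 change was 0.72 (SE 0.21, limma adjusted p = 0.0429). Irx2, its neighbour on chromosome 13, measured 501, 577 and 461 in control hearts and 557, 818 and 942 in knockout hearts. Here knockout replicate 1 fell inside the control range, so that the rise shows in 2 of 3 knockouts. Its log2 change was 0.56 (SE 0.17, limma adjusted p = 0.0469). The calls of Irx1 and Irx2 each held in 7 of 15 alternatives. They were lost with limma-voom (adjusted p = 0.0861 and 0.0788), and in leave-one-out fits each kept its call in 1 of 6, the one without knockout replicate 1. Without knockout replicate 3, which had the highest value of both genes, the log2 changes were 0.47 and 0.40.

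Irx4, the member that marks ventricular myocardium, measured 2081, 2374 and 2508 in control hearts and 1920, 1761 and 2243 in knockout hearts. Knockout replicate 3 lay above control replicate 1, so the groups overlapped. The log2 change was -0.24 (SE 0.10, 95% confidence interval -0.46 to -0.01, unadjusted p = 0.0393, limma adjusted p = 0.136). It was lower in the mean and did not pass the adjusted threshold, which does not show that it was the same in both groups. Leave-one-out values ran from -0.16 without knockout replicate 2 (limma adjusted p = 0.409) to -0.33 without knockout replicate 3 (limma adjusted p = 0.0476), the only one of the 6 that passed.

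Irx6 was barely detected, at 9, 6 and 14 in control hearts against 17, 31 and 19 in the knockouts, or an estimated 7 to 10 reads against 20 to 26 reads. The groups did not overlap. The log2 change was 1.15 (SE 0.37, 95% confidence interval 0.33 to 1.97, limma adjusted p = 0.0573). Its control mean of 9.67 is under the minimum of 10 used for testing, so it was tested only because of its knockout values. An antisense gene, Gm45505, which is not analysed here, shares 152 exonic bases with it. It passed in 2 of 14 alternatives, with embryo sex as a term (limma adjusted p = 0.0202) and without control replicate 3 (limma adjusted p = 0.0436). The log2 change was 0.71 with a pseudocount of 10 and 0.90 without knockout replicate 2 (limma adjusted p = 0.207).

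Of the 5 members with a control mean of at least 10, the groups did not overlap in 3, Irx1, Irx3 and Irx5, all higher in the knockouts. Over all genes tested 17.5% were higher without overlap. Knockout replicate 3 held the highest value of Irx1, Irx2, Irx3 and Irx5, and knockout replicate 1 the lowest of the knockouts for 5 of the 6 members, all but Irx4. Within each sex the directions of Irx3 and Irx5 were the same. In female hearts Irx5 was at 181 and 225 in the controls against 519 in the knockout, and in male hearts at 295 in the control against 469 and 716. With sex in the fit Irx3 and Irx5 kept their calls, and Irx1 and Irx2 did not (limma adjusted p = 0.0850 and 0.0852).

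Levels of different genes were compared per kb of exon, on the linear normalized scale. In the controls Irx4 was highest, at 890 ± 83.8 per kb (SD, n = 3), followed by Irx2 at 156 ± 18.0 and Irx3 at 133 ± 9.62, whose ranges overlapped. Irx1 at 87.5 ± 11.4 and Irx5 at 74.7 ± 18.4 came next, also with overlapping ranges, and Irx6 was at 2.87 ± 1.20. In the knockouts the order became Irx4 at 757 ± 94.2, Irx3 at 296 ± 86.5, Irx2 at 235 ± 59.9, Irx5 at 182 ± 41.8, Irx1 at 149 ± 51.1 and Irx6 at 6.63 ± 2.25. In this order Irx4 stood clear of Irx3, and Irx6 of all others. Each of Irx3, Irx2, Irx5 and Irx1 overlapped the next.

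The share of each member in the family was compared next. Irx4 held 65.3%, 63.8% and 69.5% of the summed Iroquois value per kb in control hearts against 52.7%, 45.0% and 43.5% in the knockouts. The share of Irx3 went from 9.93 ± 0.63% to 18.0 ± 1.71% (SD, n = 3 each) and that of Irx5 from 5.51 ± 0.98% to 11.1 ± 0.42%. The share of Irx1 was 6.84%, 7.03% and 5.68% in control hearts against 7.29%, 9.49% and 10.27% in the knockouts. For each of these shares the groups did not overlap, and the exact 2-sided permutation test gave p = 0.1, the smallest that 3 against 3 allow (0.15 adjusted over the 6 members). The shares of Irx2 and Irx6 overlapped. Shares within a heart are not independent. That of Irx4 falls when other members rise, and Irx4 itself was not called.

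**Figure D2:**
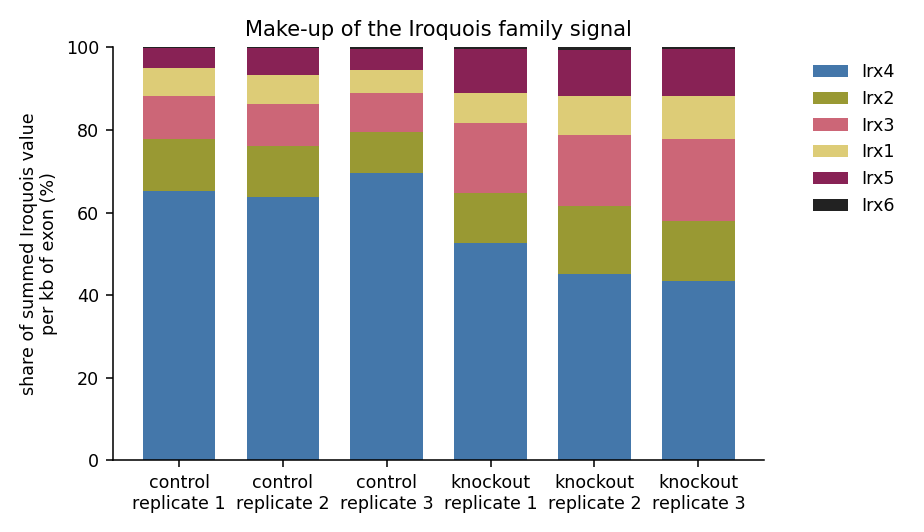
Share of each Iroquois gene in the summed family value per kb of exon (vertical axis, %) in each of the 6 hearts. The Irx4 share is 63.8% to 69.5% in control hearts against 43.5% to 52.7% in the knockouts.

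Ratios between members were taken within each heart. All 15 pairs were compared by the exact 2-sided permutation test, and 10 had groups that did not overlap (p = 0.1 each, 0.15 adjusted over the pairs), so that no pair could pass 0.05. The log2 ratio of Irx4 to Irx5 was 3.52, 3.01 and 3.48 in control hearts against 2.03, 1.76 and 1.65 in the knockouts. That of Irx3 to Irx4 differed by 1.35 between the group means, and that of Irx1 to Irx4 by 0.96, although Irx1 and Irx4 share a cluster. For Irx3 and Irx5 the groups overlapped: their log2 ratio was 0.96, 0.44 and 0.65 in control hearts against 0.46, 0.46 and 0.61 in the knockouts, with exact permutation p = 0.4 (0.50 adjusted). The ratio of Irx1 to Irx2 is counted among the 10, but its groups met at -1.13 in control replicate 2 and knockout replicate 2, and its group means differed by 0.16. The 5 pairs with overlapping groups were that of Irx3 and Irx5 and 4 of the 5 pairs with Irx6. The pair of Irx4 and Irx6 is among the 10, although Irx6 was tested only because of its knockout values. Pairs that share a member are not independent, and the share without overlap over pairs of other genes was not computed.

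The genes around the members were examined next, to see which of them were called. Within 1 Mb of the clusters 59 genes other than the members were listed and 28 tested, of which 5 rose and 2 fell. Of the 4 tested that lie between members, 3 rose, all long non-coding RNA genes whose starts are close to a member's start. Of 24 tested outside the clusters, 2 rose and 2 fell, a share near the 17.2% called over all genes tested. In leave-one-out fits 3 to 5 of all these neighbours, between members or outside the clusters, rose and 1 to 2 fell.

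Crnde, whose start is 1.5 kb from that of Irx5, measured 229, 255 and 196 in control hearts and 394, 499 and 487 in knockout hearts. Its groups did not overlap, and its log2 change was 1.02 (SE 0.13, adjusted p = 0.00114 in limma). Irx3os, on the strand opposite to Irx3, was at 35, 48 and 44 against 67, 91 and 100, also without overlap (log2 change 1.0, SE 0.21, limma adjusted p = 0.00972). It overlaps Irx3 by 1653 bases, of which 124 are exonic in both, and no source used here says whether reads were counted by strand, so its reads and those of Irx3 cannot be told apart where they overlap. Gm20554, which starts 0.3 kb from Irx2 on the other strand, was at 12, 12 and 9 against 17, 31 and 30 and rose as well (log2 change 1.13, limma adjusted p = 0.0330). Gm28515, 111.0 kb from Irx3, was at 10, 11 and 3 against 19, 18 and 20 and did not pass (limma adjusted p = 0.0624).

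Beyond Irx6 the next genes tested, Mmp2, a matrix metalloproteinase 146.3 kb away, and Lpcat2, a lysophospholipid acyltransferase 174.4 kb away, also rose, with log2 changes of 0.43 (SE 0.09) and 0.90 (SE 0.17), and adjusted p = 0.0104 and 0.00672 in limma. On the other side Fto, 130.1 kb before Irx3 and known for enhancers in its introns that act on Irx3, was at 2768, 2698 and 2967 against 2280, 2446 and 2541, with a log2 change of -0.21 (SE 0.07, limma adjusted p = 0.0565). On chromosome 13 the nearest gene tested after Irx4, Gm10263, did not pass (log2 change 0.23, SE 0.26). The 2 that fell there, Trip13, a meiotic and spindle checkpoint ATPase (-0.78, SE 0.10), and Cep72, a centrosomal protein (-0.36, SE 0.10), lie 641.7 and 766.9 kb from the cluster.

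**Figure D3:**
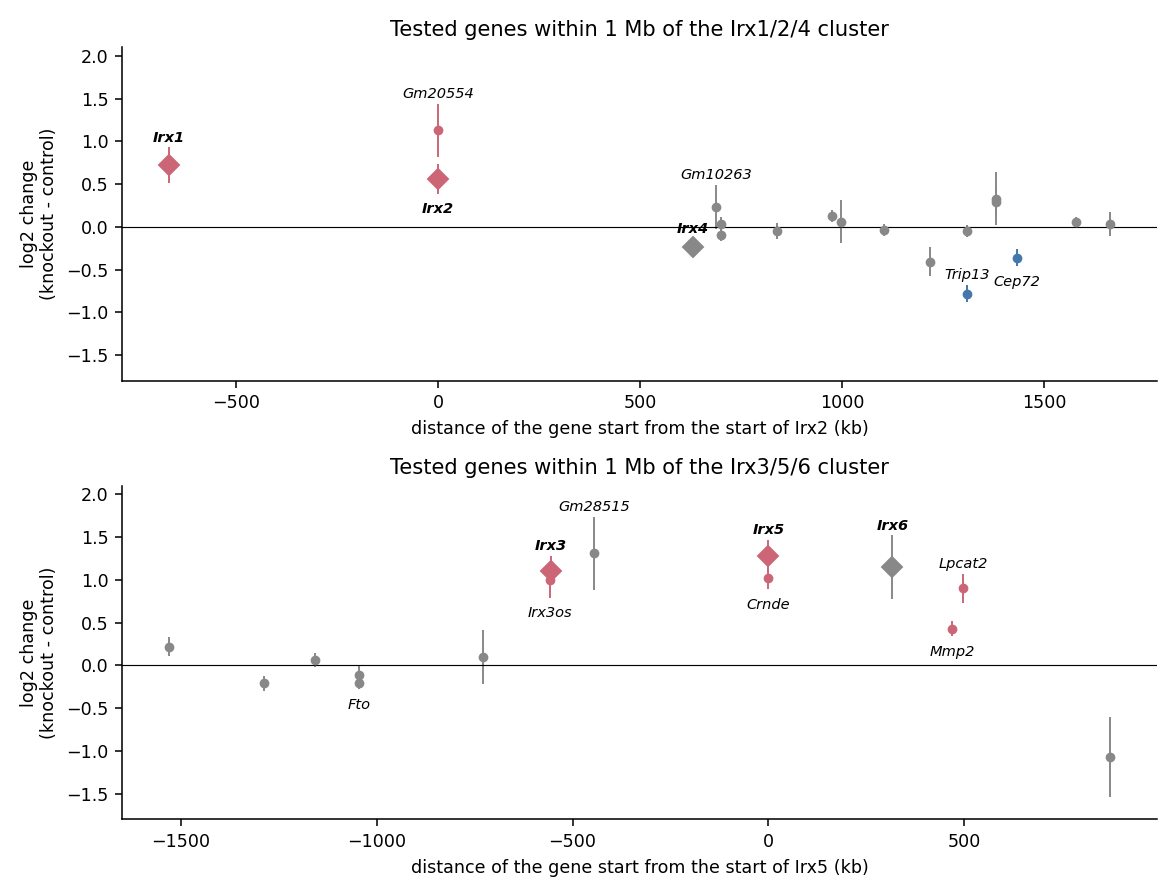
Log2 change of the knockouts against the controls with its standard error (vertical axes) for the genes tested within 1 Mb of each cluster, by distance of their start from that of Irx2 or Irx5 (kb). Diamonds are members, circles other genes. Red is called higher, blue called lower and grey not called. On chromosome 8 the calls are Irx3, Irx3os, Crnde, Irx5, Mmp2 and Lpcat2, and no tested gene farther out on either side is called.

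Genes reported elsewhere as targets or partners of Iroquois proteins were taken from a list of 22, all tested. Of these 3 rose and 5 fell, with a median log2 change of -0.07. Kcnd2, the channel subunit of the fast transient outward current that IRX5 represses, measured 169, 113 and 159 in control hearts and 54, 42 and 34 in knockout hearts, a log2 change of -1.74 (SE 0.21, limma adjusted p = 0.00103). Its accessory subunit Kcnip2 fell by 0.59 (SE 0.14) and Kcna5, of the ultrarapid potassium current, by 0.36 (SE 0.09). The chemokine gene Cxcl12, reported as repressed by IRX5, was at 2334, 1802 and 2274 against 1694, 1225 and 1170 and fell by 0.66 (SE 0.14, limma adjusted p = 0.0117). Of the sarcomere and peptide genes of the list, Myh6, the fast myosin heavy chain, had a log2 change of -1.53 (SE 0.11) and Nppa, the atrial natriuretic peptide, of 1.85 (SE 0.20).

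Of the connexin genes, Gja5, which IRX3 is reported to promote, measured 1531, 2201 and 1569 in control hearts and 2161, 2584 and 3609 in knockout hearts. Knockout replicate 1 lay below control replicate 2, and the log2 change was 0.64 (SE 0.18, limma adjusted p = 0.0373). Gja1, which IRX3 is reported to repress, was at 17949, 18366 and 16508 against 19800, 21052 and 22145 and rose by 0.25 (SE 0.07, limma adjusted p = 0.0395). Partner genes showed no call: Smyd1, a cofactor of IRX5, had a log2 change of -0.07 (SE 0.06), Nkx2-5 -0.19 (SE 0.16), Tbx5 0.13 (SE 0.15) and Rxra, a partner of IRX4, -0.05 (SE 0.11). In leave-one-out fits the list had 1 to 4 higher and 2 to 5 lower calls.

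Genes of the ventricular conduction system, where Irx3 acts, rose in 9 of 20 cases and fell in 0 (median log2 change 0.15). Scn10a, a sodium channel gene, measured 143, 168 and 157 in control hearts and 248, 289 and 391 in knockout hearts and rose by 0.96 (SE 0.16, limma adjusted p = 0.00375). Etv1, a factor needed for fast conduction, was at 448, 482 and 391 against 641, 800 and 635 and rose by 0.65 (SE 0.11). Slit2, a guidance ligand, had a log2 change of 1.31 (SE 0.14), Id2, an inhibitor of helix-loop-helix factors, of 0.87 (SE 0.10), and Hopx, an atypical homeodomain protein, of 0.49 (SE 0.08). Nrg1, an endocardial growth factor for trabeculae, measured only 5, 12 and 7 in control hearts against 35, 45 and 48 in knockout hearts. Its control mean is under 10, so that it was tested only through its knockout values, and it is counted in the 9. Cntn2, a marker of Purkinje cells, was at 34, 89 and 53 against 167, 85 and 243, so that knockout replicate 2 lay inside the control range. Genes of pacemaker tissue did not pass, with Hcn4 at a log2 change of -0.20 (SE 0.19) and Tbx3 at 0.13 (SE 0.18). At an unadjusted p under 0.05, 1 of the list was lower, Cacna1h (log2 change -0.32, SE 0.13). In leave-one-out fits 7 to 9 of the list rose and 0 to 1 fell.

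Of 8 trabecular genes 6 rose and 1 fell (median 0.65), with Nppa, Slit2, Gja5 and Etv1 shared with the lists above. Bmp10, a growth factor of the trabeculae, was at 232, 291 and 151 against 339, 523 and 382, with a log2 change of 0.91 (SE 0.23). Nppb rose by 0.57 (SE 0.10), and Sphkap, a protein kinase A anchor, fell by 1.01 (SE 0.17). Of 8 ventricular chamber genes 1 rose and 3 fell (median -0.09). Pln rose by 0.28 (SE 0.08), while Lbh fell by 0.47 (SE 0.07) and Hey2 by 0.42 (SE 0.10). Hand1, a factor of the left ventricle, was at 174, 144 and 168 against 65, 79 and 95 and fell by 1.03 (SE 0.17). Myl2 and Myl3, the ventricular light chains, had log2 changes of -0.12 (SE 0.10) and 0.04 (SE 0.09). Of 11 atrial genes 2 rose and 2 fell (median 0.13). Angpt1 rose by 1.31 (SE 0.12) and Nr2f2, a factor of atrial identity, by 0.56 (SE 0.10). Myl4 fell by 0.65 (SE 0.10) and Kcna5 by 0.36 (SE 0.09). Of 7 compact wall genes 2 rose and 2 fell (median 0.09). The higher calls were Fgfr2, with a log2 change of 0.54 (SE 0.11), and Ccnd2, with one of 0.39 (SE 0.07). The lower calls were Mycn, at -0.55 (SE 0.09), and Hey2, at -0.42 (SE 0.10). In leave-one-out fits 0 to 1 ventricular chamber, 2 to 4 atrial and 1 to 3 compact wall genes rose. In these lists the genes named that did not pass, and Gja5, Gja1 and Cntn2, were picked after their values were seen.

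Of 12 other TALE homeobox genes tested, 0 rose and 1 fell, Pbx3, at 731, 700 and 783 in control hearts against 487, 494 and 520 in the knockouts (log2 change -0.56, SE 0.08, limma adjusted p = 0.00176). Pbx2 had a log2 change of 0.17 (SE 0.08), and Meis1 and Meis2 had -0.14 (SE 0.07) and 0.08 (SE 0.06). Mkx, with a control mean of 8.33, was tested only because of its knockout values. The difference between the Iroquois genes and these relatives was not tested.

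**Figure D4:**
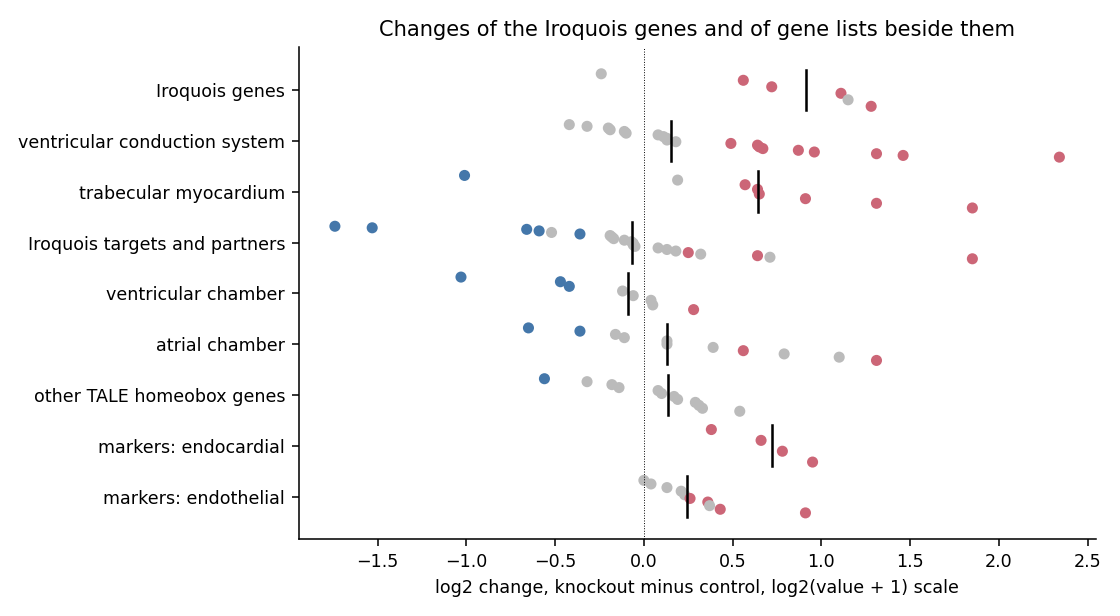
Log2 change of the knockouts against the controls (horizontal axis) for each tested gene of the Iroquois family and of 8 lists. Red points are called higher, blue called lower, grey not called, and black bars are medians. The median of the Iroquois genes is 0.91, or 0.72 over the 5 with a control mean of at least 10. That of the other TALE homeobox genes is 0.14.

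Irx3 and Irx5 are also expressed in the endocardium, whose markers were higher in the same hearts. All 4 endocardial markers rose, among them Npr3 by 0.95 (SE 0.07) and Nfatc1 by 0.38 (SE 0.09). In leave-one-out fits 2 to 4 of them rose, 2 without knockout replicate 2. Their summed value was 4153 to 4656 in control hearts against 6612 to 7883 in the knockouts. Of 10 endothelial markers 4 rose (7 without knockout replicate 1) and 0 fell, with sums of 25303 to 27268 against 28669 to 33271. Set against the endocardial sum of the same heart, a scale chosen after the values were seen, Irx5 was at 43.6, 64.2 and 48.3 per 1000 in control hearts against 70.9, 65.8 and 93.4 in the knockouts. The groups stayed apart by little, with a log2 difference of 0.56 in place of 1.28. On that scale Irx4 differed by -0.96 and Irx3 by 0.39, also without overlap. Irx6 differed by 0.52, Irx2 by -0.16 and Irx1 by 0, with overlapping groups. The exact permutation p was 0.1 for Irx3, Irx4 and Irx5 (0.20 adjusted over the 6 members), the smallest it can be.

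Markers of other cell types were as follows. Cardiomyocyte markers fell in 2 of 7 cases, with sums of 366753 to 388454 in control hearts against 257101 to 285815 in the knockouts. The 2 were Myh6 and Actn2, the sarcomeric actinin. Myh6, at 86437 to 106187 in control hearts against 31568 to 39554 in the knockouts, makes up much of the difference between the sums. The other 5 were not called, with log2 changes of -0.24 to -0.16. Fibroblast markers rose in 5 of 9 cases (sums 96028 to 110044 against 126914 to 157140), macrophage markers in 7 of 9 (1847 to 2196 against 2727 to 3949) and epicardial markers in 1 of 8 (4015 to 4320 against 4535 to 5049). Of 6 mural cell markers 1, Myh11, fell (sums 8835 to 10146 against 10349 to 11886). None of 6 erythroid and 4 tested neural markers passed (sums 37800 to 65940 against 30192 to 37646, and 297 to 387 against 282 to 358). In other fits 4 erythroid markers were lower with the replicate block, 3 without control replicate 1 and 3 without knockout replicate 3.

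Markers of the embryonic lung, which expresses Iroquois genes and lies beside the heart, were too low to test. The epithelial markers summed to 9 to 24 in control hearts against 12 to 20 in the knockouts, with Nkx2-1 at 0 in all hearts, and lung and foregut mesenchyme markers to 16 to 22 and 18 to 29, values in the range of Irx6. Skeletal muscle markers summed to 0 to 6 and 3 to 13, with Myod1 and Pax7 at 0 throughout. The part of any of these cell types, the endocardium included, in the Iroquois changes was not tested. The endocardial scale above does not test it, because it divides by a sum that itself was higher in the knockouts.

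The genes whose profile over the 6 hearts was most like that of a member were found among 10687 genes with a mean of at least 100, by the root mean square difference of log2 values centred on each gene's own mean. Nearest to Irx3 were Scn10a (0.099), the heme oxygenase gene Hmox1 (0.112) and Phlda1 (0.123). Nearest to Irx5 were Clu, the chaperone clusterin (0.141), Tmem88b (0.163) and Ache, acetylcholinesterase (0.165). Nearest to Irx4 were Hspb6, a small heat shock protein (0.019), Ints5 (0.032) and Tesk1 (0.036). Irx3 and Irx5 were 0.181 apart, which placed Irx3 as number 8 on the list of Irx5 and Irx5 as number 11 on that of Irx3. Irx1 was number 28 for Irx3, at 0.227, while Irx4 lay far from both, at 0.696 and 0.785.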

How the data were processed

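Poly(A) RNA of 3 control and 3 knockout hearts was measured. The tools named are STAR 2.4.2a, featureCounts 1.5.0, Trimmomatic, DESeq and DESeq2, with build mm10, per the submitters' processing notes; the role of each and the strand setting are not given in the sources used here. The deposited values are a score: gene reads scaled by the authors with 1 factor for each heart, then rounded, as read from the values, since the file headers name no unit. The step between low values, checked on simulated reads, gave the estimated depths. Low values carry counting error that the scale does not show.

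Because the values are not counts, limma 3.58.1 (R 4.3.3; variance trend, group only) was run on log2(value + 1) in 15556 genes whose mean reached 10, with Benjamini-Hochberg adjustment over all of them and a threshold of 0.05. Fold changes on that scale understate low genes. The fit was tested on simulated data. Gene symbols were matched exactly, and coordinates and exon lengths (union of exons) came from GENCODE M21 of the same build for 45143 genes. Promoter sequences are RefSeq's. Scripts used Python 3.11.15, pandas 2.3.3, numpy 2.4.6, scipy 1.17.1 and matplotlib 3.10.9.

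The members and lists were chosen with earlier results of these data known. Named were the members and the called neighbours within 1 Mb, with the nearest tested gene on each side. Also named were the 3 nearest profiles for Irx3, Irx4 and Irx5. For each list up to 6 called genes were named by smallest p. For the cell type markers fewer are printed, and not always those with the smallest p. The alternatives tried are given in the closing section. No pair of hearts in a group agreed within counting error, so none was counted as a repeat.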

Additional observations from a re-analysis of the deposited data

How the results depend on the processing

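Irx3 and Irx5 were called higher in each of 15 alternatives (log2 changes 0.88 to 1.26 and 1.10 to 1.46). The number of members called higher, 4, was 2 with limma-voom on estimated reads and 2 with no filter on low values, 3 with embryo sex as a term and 2 to 4 without each heart in turn; it was 4 with equal totals, quantile normalization, pseudocounts of 0.1 and 10, a minimum of 50 in 3 hearts and the replicate block. It was 2 without control replicate 1 or 2 and without knockout replicate 2 or 3. With fewer samples the fits have less power; the other causes were not tested. The number called lower, 0, was 1 (Irx4) with the replicate block and 0 to 1 without each heart in turn. No direction of a member reversed. The same-numbered hearts did not deviate together (correlations -0.041, -0.372 and 0.049), so the block rests on a number alone. Counts for the neighbours and the lists with tested genes stayed within 1.5 times in 446 comparisons and moved further in 64. The 446 include counts of 0 that stayed 0, as for lower calls of endothelial, endocardial, epicardial, fibroblast and macrophage markers, so they overstate how stable the other counts are. Ratios between members moved by less than the spread between hearts in all 105 alternatives. The motif AAGTG in Irx2 and Crnde lies on the strand opposite to the gene and is lost when 1 strand is searched. Irx6 rests on an estimated 7 to 26 reads per heart.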
